A study of Mus musculus with 108 samples.

Results

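The proteasome genes were taken as every protein-coding gene whose symbol begins with Psm, followed by a letter from a to g and a digit. The rule found 54 symbols, and 4 of them (Psmb5-ps, Psmb7-ps2, Psmb6-ps and Psmb6-ps2) were pseudogenes and were left out, so that 50 of the 53465 genes in the deposited table were members. Of these, 48 encode parts of the proteasome or its partners. They are 7 alpha and 7 constitutive beta subunits of the 20S core, 3 inducible beta subunits, 2 tissue-restricted subunits, 6 ATPases and 11 non-ATPases of the 19S particle, 3 chaperones of the 19S base, 4 activators, 1 inhibitor and 4 chaperones of 20S assembly. The other 2 only share the symbol pattern: Psmc3ip encodes a cofactor of homologous recombination, and Psme2b is an intron-poor gene resembling Psme2, whose reads may be split with it. The 14 core and 17 particle subunits found in every cell are called the 31 constitutive 26S subunits here.

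Bulk RNA was sequenced from 3 brain regions (cerebellum, hippocampus and cortex) of wild-type (WT) and Cul3+/- mice (labelled HET). The periods were a late embryonic day (E17.5), postnatal day 7 (P7) and postnatal day 35 (P35, called adult here). No treatment is labelled, and the labels give the strain of all mice as C56Bl/6N where the study's methods write C57BL/6N. The Cul3+/- line carries a frameshifting insertion of a single base pair made by CRISPR in every tissue, with no Cre or transgene. The labels gave 6 mice per genotype and period, each giving all 3 regions. Of the adults, 5 WT and 5 Cul3+/- mice were used, since the genotype of 2 adult mice is given differently in 2 sources. The depth of a library was 15126114 to 44411282 counts. Levels are CPM, counts scaled to a common library size after TMM normalisation. For groups of 6 they are given as the lowest, median and highest library.

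The proteasome is the protease that degrades proteins tagged with ubiquitin. Its 20S core is a barrel of stacked alpha and beta rings, and the beta subunits encoded by Psmb5 (chymotrypsin-like), Psmb6 (caspase-like) and Psmb7 (trypsin-like) cut the substrate. The immunoproteasome is made under interferon signalling and in immune cells including microglia. In it these subunits are replaced by the products of Psmb8, Psmb9 and Psmb10, which favours peptides for presentation on MHC class I. The 19S particle recognises ubiquitin, unfolds the substrate with its ATPase ring and feeds it to the core. The PA28 activators (Psme1, Psme2 and, in the nucleus, Psme3) and PA200 (Psme4) open the core without it. In neurons the proteasome is known for its part in axon growth, synapse turnover and plasticity. CUL3, the scaffold of a family of ubiquitin ligases, makes substrates for it.

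The promoters of a constitutive catalytic pair (Psmb5 and Psmb6), of the inducible subunits in the MHC (Psmb8 and Psmb9) and of the activator Psme1 are shown as examples of the constitutive and the interferon-induced members whose levels are given in full below. Each is the RefSeq window of build GRCm38.p6 from 250 bases before to 50 bases after the annotated transcription start, so the last 50 bases are the first transcribed ones. They lie at chr14:54617946-54618245 on the minus strand for Psmb5, chr11:70525107-70525406 on the plus strand for Psmb6, chr17:34197945-34198244 on the plus strand for Psmb8, chr17:34187281-34187580 on the minus strand for Psmb9 and chr14:55578244-55578543 on the plus strand for Psme1. Capitals mark the antioxidant response element core TGACNNNGC in Psmb5 and Psmb6 and the reverse complement of the interferon-stimulated repeat (GAAA, any 2 bases and GAAA) in Psme1. None of the motifs searched was found in the Psmb8 or Psmb9 window. The windows of Psmb8, Psmb9 and Psme1 lie inside the gene coordinates given for them below. Bases before those gene starts were not searched, so these windows do not show that their promoters lack a motif.
Psmb5: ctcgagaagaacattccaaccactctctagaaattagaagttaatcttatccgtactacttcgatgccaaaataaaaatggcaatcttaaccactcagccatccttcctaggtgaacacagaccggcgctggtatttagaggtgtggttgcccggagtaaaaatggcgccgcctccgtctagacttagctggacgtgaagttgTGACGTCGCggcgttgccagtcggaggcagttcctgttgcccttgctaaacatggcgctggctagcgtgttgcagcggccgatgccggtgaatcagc
Psmb6: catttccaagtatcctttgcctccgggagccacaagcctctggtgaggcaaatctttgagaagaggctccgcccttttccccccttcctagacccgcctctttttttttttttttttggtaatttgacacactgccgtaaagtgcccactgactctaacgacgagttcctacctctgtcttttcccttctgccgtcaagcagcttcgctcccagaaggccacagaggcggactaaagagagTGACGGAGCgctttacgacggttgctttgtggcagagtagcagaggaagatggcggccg
Psmb8: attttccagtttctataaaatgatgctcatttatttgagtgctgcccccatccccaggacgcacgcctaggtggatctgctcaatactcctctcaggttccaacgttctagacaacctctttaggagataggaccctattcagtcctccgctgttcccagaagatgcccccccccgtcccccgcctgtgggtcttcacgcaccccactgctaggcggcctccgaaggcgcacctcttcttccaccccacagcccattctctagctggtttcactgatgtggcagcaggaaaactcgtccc
Psmb9: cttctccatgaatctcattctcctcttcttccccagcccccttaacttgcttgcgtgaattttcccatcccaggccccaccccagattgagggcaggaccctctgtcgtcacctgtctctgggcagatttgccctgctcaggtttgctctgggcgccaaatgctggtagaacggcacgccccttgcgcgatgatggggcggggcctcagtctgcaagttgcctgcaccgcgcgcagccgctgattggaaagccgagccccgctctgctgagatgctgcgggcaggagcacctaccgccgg
Psme1: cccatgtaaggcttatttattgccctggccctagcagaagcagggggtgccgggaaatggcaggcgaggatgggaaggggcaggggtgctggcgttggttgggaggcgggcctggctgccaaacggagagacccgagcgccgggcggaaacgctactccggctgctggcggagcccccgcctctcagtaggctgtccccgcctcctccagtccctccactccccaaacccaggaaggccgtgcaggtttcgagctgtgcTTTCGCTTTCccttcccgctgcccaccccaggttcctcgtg
The antioxidant response element is bound by NRF1 (Nfe2l1), a known transcription factor of proteasome genes, and the interferon-stimulated repeat by interferon regulatory factors.

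Over both strands of the windows of 42 members, TGACNNNGC was found in 6 (14.3%) against 12.4% of all 32851 windows. Members on chromosome 18 (Psma8 and Psmg2) were left out of the 42, while windows of that chromosome stayed among the 32851. Members were counted by gene and the background by window, so the shares given here are not strictly alike. The interferon-stimulated repeat was found in 5 (11.9%) against 3.44%, namely in Psmb3, Psmd4, Psmd9, Psme1 and Psmg4, none of which is an inducible catalytic subunit. CCGGAAGT, the letters ETS factors bind, was found in 9 (21.4%) against 3.89%, and these were Psma6, Psmc1, Psmc2, Psmd6, Psmd12, Psmd13, Psme3, Psme4 and Psmg3. These are matches of letters in the reference and no binding was measured.

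Cul3, the targeted gene, was checked first. Its mean level was 175 to 209 CPM in the WT groups and 93.8 to 123 CPM in the Cul3+/- groups, and the genotypes overlapped in no dataset (log2 fold change from -0.99 to -0.74, adjusted p from 8.80e-09 to 0.00263). The cerebellum markers summed to 744 to 3047 CPM in the cerebellum libraries and to 18.2 to 93.9 CPM in the cortex libraries, and the cortex markers to 180.4 to 1029 CPM in the cortex and 0.627 to 11.04 CPM in the cerebellum. Choroid plexus markers reached 4619 CPM in a hippocampus WT library at E17.5 (group median 26.6) and 3011 CPM in an adult cerebellum WT library (group median 20.1).

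Psmd11, a non-ATPase subunit of the 19S lid, set 5 WT libraries apart. It was at 75.3 CPM in E17.5 cortex WT 3, 61.9 and 62.3 CPM in E17.5 hippocampus WT 1 and WT 6, 62.9 CPM in P7 cortex WT 4 and 74.7 CPM in adult cerebellum WT 3, and at 24.8 to 49.9 CPM in the other 97. In 4 of these 5 libraries, all but E17.5 cortex WT 3, the summed level of the 31 constitutive 26S subunits was below that of every other library of the group: 2463 and 2286 against 2861 to 3181 CPM in E17.5 hippocampus, 2477 against 2911 to 3171 CPM in P7 cortex and 2195 against 2557 to 2711 CPM in adult cerebellum. The share of counts from mitochondrially encoded genes was above the others of its group in all 5, for example 7.86% against 4.51% to 4.90% in adult cerebellum WT 3. The share from ribosomal protein genes was below the others in 4, for example 0.599% against 0.790% to 0.830% in the same library. The part of these measures in the results was not tested, and each count of members called that they moved by more than 1.5 times is given with and without the 5 libraries. With them in the fit, the E17.5 to P7 change of Psmd11 in the hippocampus was -0.79 (SE 0.12, adjusted p = 1.75e-05).

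Per kilobase of transcript and over the WT groups, Psmb6 had the highest mean level of the 50 members, 129.6 CPM per kb, and Psmb11, a thymus subunit, the lowest, 0.0165 CPM per kb. On this scale Psmb4 stood at 98.1, Psmb7 at 97.9, Psma7 at 97.5 and Psmb5 at 73.3 CPM per kb. The inducible subunits were far lower: Psmb10 at 11.1, Psmb8 at 0.735 and Psmb9 at 0.363 CPM per kb. Among the activators Psme1 stood at 34.8, Psme3 at 23.3, Psme2 at 22.7 and Psme4 at 18.9 CPM per kb, and the inhibitor Psmf1 at 8.15. When coding length was used instead, Psmb4 took the first place at 146.5 CPM per kb and Psmb6 the next at 144.8, and Psmf1, at 38.2, stood above Psme2 at 30.5 and Psme4 at 22.2.

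The members varied unequally over the 9 WT groups. The highest group mean was 1.18 times the lowest for Psmd4, a ubiquitin receptor of the 19S particle and the steadiest member, 9.40 times for Psmc3ip, 6.75 times for Psmb9, 5.40 times for Psmb8, 4.76 times for Psmb10 and 4.10 times for Psme1. Within groups, the median coefficient of variation between mice was smallest for Psme3 (3.96%) and reached 19.6% for Psmb8, 24.9% for Psma8, 33.3% for Psmb9 and 90.3% for Psmb11. Psmb11 never passed the filter on low counts. Psma8, an alpha subunit known from the testis, passed it in 2 of the 9 genotype datasets and Psmb9 in 5, and where these genes passed through the group in which they were high, a difference had to follow. The other 47 members passed in every fit.

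In WT the summed mRNA of the 31 constitutive 26S subunits was highest at P7 in the cerebellum and lowest in adults in the cortex and cerebellum. In the cortex it was 3041 ± 204 (SD, n = 6) CPM at E17.5, 2967 ± 255 (SD, n = 6) at P7 and 2615 ± 168 (SD, n = 5) in adults. The hippocampus stood at 2794 ± 347 (SD, n = 6), 3091 ± 156 (SD, n = 6) and 2802 ± 96.7 (SD, n = 5) CPM. The cerebellum stood at 2879 ± 191 (SD, n = 6), 3474 ± 204 (SD, n = 6) and 2544 ± 203 (SD, n = 5) CPM. Every P7 cerebellum library was above every E17.5 and every adult cerebellum library, while the E17.5 and P7 ranges overlapped in the cortex and in the hippocampus. In bulk tissue, fewer cells of a type and less RNA per cell cannot be told apart.

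**Figure D1:**
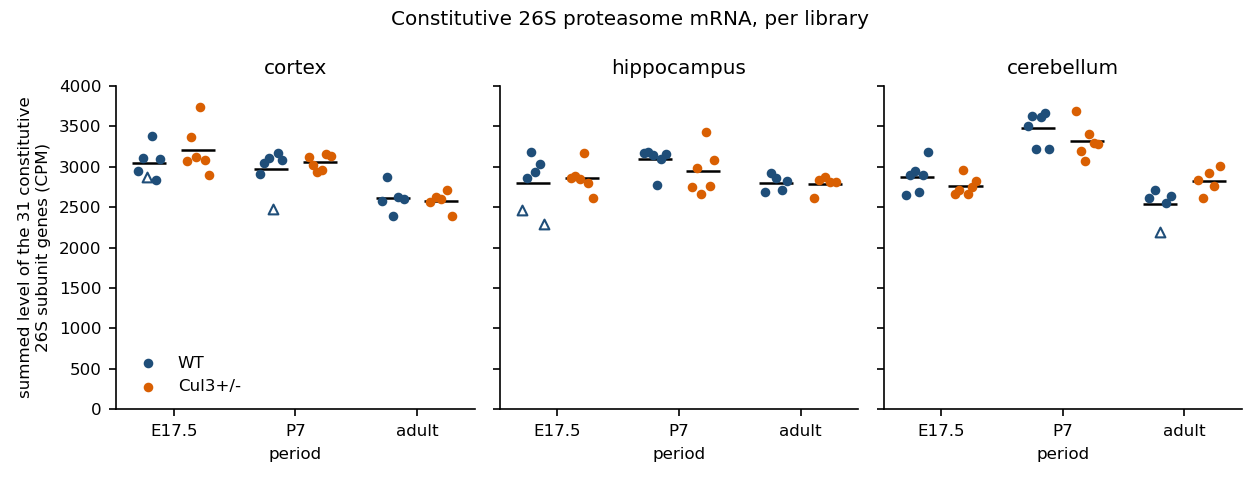
Summed level of the 31 constitutive 26S subunit genes (y axis, CPM) by period (x axis) in cortex, hippocampus and cerebellum; each point is a library, blue for WT and orange for Cul3+/-, lines are group means and open triangles are the 5 WT libraries in which Psmd11 is above 60 CPM. In the WT cerebellum the 6 P7 libraries lie at 3218 to 3660 CPM, above the E17.5 libraries (2654 to 3180) and the adult ones (2195 to 2711).

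From E17.5 to P7, 35 members were higher and 2 lower of 49 tested in the WT cerebellum, where 35.7% of all genes tested were called higher and 35.5% lower. In the cortex 10 were higher and 28 lower of 48 (41.3% and 40.6% of all genes), and in the hippocampus 19 were higher and 11 lower of 48 (38.9% and 39.1%). The hippocampus count rested on single libraries: 18 members were called lower without E17.5 WT 6 and 24 without the libraries set apart by Psmd11. Of the 31 constitutive subunits, 26 rose and none fell in the cerebellum, 6 rose and 15 fell in the cortex, and 15 rose and 2 fell in the hippocampus. The hippocampus counts of these subunits were 13 higher and 6 lower without E17.5 WT 6 and 9 higher and 12 lower without the libraries set apart, and leaving out any of 7 other libraries by itself left 1 lower. In the cortex these were 9 of 14 core genes lower and none higher, and 6 of 17 particle genes lower and 6 higher. The median log2 fold change of the members tested was 0.23 in the cerebellum, -0.19 in the cortex and 0.04 in the hippocampus, beside -0.01, 0.01 and -0.00 over all genes. The hippocampus median was -0.03 with upper-quartile normalisation and -0.07 without the libraries set apart.

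From P7 to adult the direction in the cerebellum turned. There 44 of 49 members fell and 1 rose, against 39.4% lower and 40% higher of all genes, and the median was -0.41. All 14 core genes fell, with log2 fold changes from -0.85 to -0.34 and a median of -0.66, whereas 15 of 17 particle genes fell with a median of -0.27. In the cortex 25 members fell and 6 rose of 48 (34.5% and 33.2% of all genes, median -0.16), and in the hippocampus 23 fell and 6 rose (31.5% and 31.3%, median -0.12). With a log2 fold change of at least 0.5 also required, 22 members fell and none rose in the cerebellum (28.3% and 29.5% of all genes), 4 fell and 4 rose in the cortex (22.7% and 21.9%), and 5 fell and 2 rose in the hippocampus (20.6% and 18.9%). Under that rule 6 members rose and none fell in the cerebellum from E17.5 to P7 (19.6% and 21%), 4 rose and 6 fell in the cortex (32.7% and 29.7%), and 4 rose and 4 fell in the hippocampus (29.0% and 27.2%). Markers of dividing cells moved alongside in the cerebellum: all 5 rose from E17.5 to P7 and all 5 fell to adult there, with mean sums of 661, 970.2 and 3.59 CPM. In the cortex (446, 68.4 and 13.6 CPM) and the hippocampus (537, 117 and 13.05 CPM) all 5 fell at both steps. From E17.5 to P7 the hippocampus had 19 members higher and 11 lower, and 24 lower without the libraries set apart by Psmd11. Their part in the proteasome changes was not tested.

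**Figure D2:**
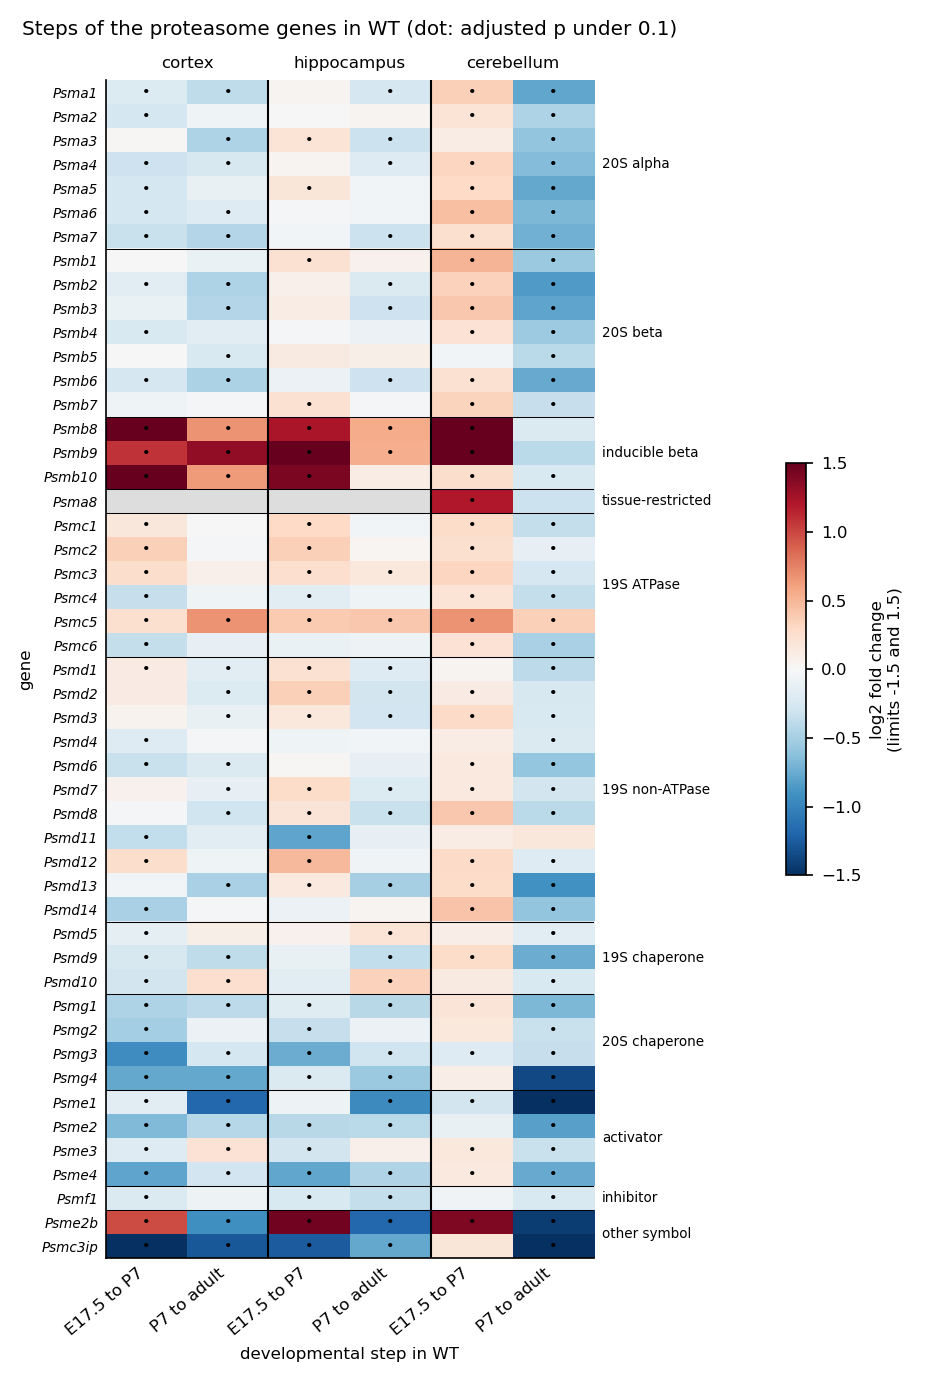
Log2 fold change (colour, limited to -1.5 and 1.5) of each proteasome gene tested (rows, grouped by role) from E17.5 to P7 and from P7 to adult in WT cortex, hippocampus and cerebellum (columns); a dot marks an adjusted p under 0.1 and grey a gene not tested. The last column is blue for nearly all rows, with 44 of 49 members lower, Psmc5 as the 1 member higher, and Psmb8 to Psmb10 are red in every column from E17.5 to P7.

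Among the constitutive catalytic subunits, Psmb6 (chr11:70525367-70527858, plus strand) changed most. In the WT cerebellum it was at 108, 118 and 128 CPM (lowest, median, highest) at E17.5, 121, 140.4 and 152 at P7 and 85.0, 87.3, 67.5, 82.2 and 84.6 in the 5 adults. The adult libraries were all below the P7 libraries, and the P7 range overlapped the E17.5 range. The log2 fold changes were 0.23 (SE 0.063, adjusted p = 0.00389) and then -0.75 (SE 0.068, adjusted p = 7.12e-09). In the cortex Psmb6 was at 110.2, 117 and 134 CPM at E17.5, 77.1, 106 and 112 at P7 and 71.3, 76.5, 66.9, 72.4 and 74.8 in adults. All adult cortex libraries were again below all P7 libraries, and both falls were called: -0.25 (SE 0.080, adjusted p = 0.00892) and -0.47 (SE 0.084, adjusted p = 8.98e-05).

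Psmb5 (chr14:54614119-54618022, minus strand) was at 58.3, 73.0 and 80.7 CPM at E17.5, 63.5, 72.2 and 74.6 at P7 and 49.5, 55.9, 48.7, 53.6 and 53.9 CPM in adults in the WT cerebellum. The adult libraries lay below all earlier ones, with a P7 to adult log2 fold change of -0.41 (SE 0.072, adjusted p = 4.35e-05). In the hippocampus Psmb5 was at 63.8, 74.0 and 76.8 CPM at P7 and at 70.0, 82.4, 74.5, 72.0 and 82.6 CPM in adults, ranges that overlapped, and the change was 0.09 (SE 0.096, adjusted p = 0.449). Psmb7 (chr2:38588036-38644087, minus strand) was called higher from E17.5 to P7 in the cerebellum, 0.33 (SE 0.072, adjusted p = 4.97e-04), and lower to adult, -0.34 (SE 0.076, adjusted p = 4.80e-04). Its rise in the hippocampus, 0.23 (SE 0.088, adjusted p = 0.0275), was not called without the libraries set apart by Psmd11 (log2 fold change 0.10).

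The other 20S genes fell together in the adult cerebellum. The largest falls among the constitutive subunits, picked after their values were seen, were those of Psmd13, a 19S lid subunit (-0.91 (SE 0.063, adjusted p = 1.54e-10)), of Psmb2 (-0.85) and Psmb3 (-0.79), structural beta subunits, and of the alpha-ring subunit Psma1 (-0.78). From E17.5 to P7 the beta subunit Psmb1 rose by 0.51, the alpha subunit Psma6 by 0.45 and Psmd14, the deubiquitinase of the lid, by 0.43 on the log2 scale. In the cortex Psmd14 fell at that step, -0.49 (SE 0.080, adjusted p = 2.12e-05).

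Psmc5 (chr11:106256154-106263120, plus strand), an ATPase of the 19S ring, was the only member called higher from P7 to adult in the cerebellum. It was at 54.4, 59.7 and 77.4 CPM at E17.5, 88.2, 103 and 106 at P7 and 129, 129, 122, 123 and 128 CPM in adults there, with no overlap between any of the periods. In the cortex the levels were 47.9, 61.6 and 75.5 CPM at E17.5, 65.4, 78.5 and 80.7 at P7 and 111, 128, 111, 121 and 119 in adults, where the adults lay above all P7 libraries and the E17.5 and P7 ranges overlapped. It rose at both steps in all 3 regions, by 0.24 and 0.67 (SE 0.093, adjusted p = 5.12e-06) in the cortex, by 0.39 and 0.40 (SE 0.13, adjusted p = 0.0138) in the hippocampus and by 0.67 (SE 0.067, adjusted p = 7.90e-08) and 0.36 (SE 0.070, adjusted p = 1.39e-04) in the cerebellum. Of the other 5 ATPases, all fell from P7 to adult in the cerebellum, with log2 fold changes from -0.48 (Psmc6) to -0.12 (Psmc2).

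The inducible catalytic subunits rose from E17.5 to P7 in every region, 3 of 3 each time, and parted afterwards. For Psmb9 the filter on low counts limits this, as given below. Psmb8 (chr17:34197721-34201454, plus strand), in the MHC, was at 0.179, 0.368 and 0.623 CPM in the WT cortex at E17.5, 1.06, 1.13 and 1.38 at P7 and 1.38, 1.89, 2.01, 1.97 and 1.95 CPM in adults. The P7 libraries were all above the E17.5 libraries, and the adults lay above P7 except WT 1, at the top of the P7 range. In the cerebellum it was at 0.279, 0.479 and 0.558 CPM at E17.5, 1.35, 1.47 and 1.53 at P7 and 1.23, 1.37, 0.924, 1.42 and 1.23 in adults, where E17.5 and P7 did not overlap and P7 and adult did. Its E17.5 to P7 log2 fold change was 1.52 (SE 0.24, adjusted p = 1.08e-05) in the cortex, 1.22 (SE 0.18, adjusted p = 7.37e-06) in the hippocampus and 1.70 (SE 0.16, adjusted p = 3.97e-08) in the cerebellum. From P7 to adult it rose further in the cortex, 0.67 (SE 0.21, adjusted p = 0.0111), and hippocampus, 0.55 (SE 0.17, adjusted p = 0.0100). It was not called in the cerebellum, -0.22 (SE 0.16, adjusted p = 0.213).

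Psmb9 (chr17:34181987-34187764, minus strand), its neighbour in the MHC, was the scarcest of the inducible subunits. In the cortex it was at 0.0348, 0.130 and 0.215 CPM at E17.5, 0.172, 0.279 and 0.480 at P7 and 0.886, 0.782, 0.680, 0.378 and 0.749 CPM in adults, and neighbouring periods overlapped. In the cerebellum it was at 0.0562, 0.170 and 0.335 CPM at E17.5, 0.749, 0.830 and 1.10 at P7 and 0.974, 0.633, 0.355, 0.547 and 0.720 in adults, with no overlap between E17.5 and P7. The steps to P7 were 1.08 (SE 0.36, adjusted p = 0.00992) in the cortex, 1.69 (SE 0.29, adjusted p = 4.33e-05) in the hippocampus and 2.26 (SE 0.32, adjusted p = 6.73e-06) in the cerebellum. Psmb9 did not pass the filter on low counts in the region fit at E17.5. It so entered the step fits through later periods, and a rise from E17.5 had to follow. The step to adult was 1.33 (SE 0.29, adjusted p = 6.38e-04) in the cortex, 0.54 (SE 0.25, adjusted p = 0.0725) in the hippocampus and -0.41 (SE 0.29, adjusted p = 0.213) in the cerebellum. In the cortex Psmb9 did not pass the filter in the P7 genotype dataset either, so it entered that step fit through adults. The cortex rise to adult so had to follow as well. The hippocampus call was lost when any of 6 WT libraries was left out by itself.

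Psmb10 (chr8:105935735-105938444, minus strand), which lies outside the MHC, was the most abundant of the inducible subunits. In the cortex it was at 3.41, 6.19 and 7.67 CPM at E17.5, 17.4, 19.5 and 20.2 at P7 and 26.2, 32.5, 28.3, 29.2 and 28.9 CPM in adults. The periods did not overlap there, and the steps were 1.61 (SE 0.14, adjusted p = 4.38e-09) and 0.63 (SE 0.13, adjusted p = 4.87e-04). In the hippocampus it was at 5.03, 6.43 and 8.30 CPM at E17.5, 16.02, 18.2 and 19.5 at P7 and 17.47, 19.6, 20.3, 19.3 and 19.7 in adults. The steps were 1.42 (SE 0.098, adjusted p = 7.16e-10) and 0.11 (SE 0.099, adjusted p = 0.359), and the later one was not called. In the cerebellum it was at 8.37, 10.0 and 12.8 CPM at E17.5, 10.4, 12.2 and 13.95 at P7 and 10.8, 11.1, 8.32, 10.7 and 11.1 in adults, and all 3 ranges overlapped. The cerebellum steps were 0.27 (SE 0.10, adjusted p = 0.0275) and -0.23 (SE 0.11, adjusted p = 0.0604), and the fall was not called without adult cerebellum WT 3 (-0.15, adjusted p = 0.177) or without P7 WT 1 (-0.20, adjusted p = 0.122). Microglia markers moved alongside: 8 of 8 rose from E17.5 to P7 in each region, 8 of 8 rose again to adult in the cortex and hippocampus, and 2 rose and 6 fell in the cerebellum. Their mean WT sums were 45.5, 169.8 and 361 CPM in the cortex, 72.3, 201 and 391 CPM in the hippocampus and 55.0, 166 and 117 CPM in the cerebellum. Their part in the changes of the inducible subunits was not tested.

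**Figure D3:**
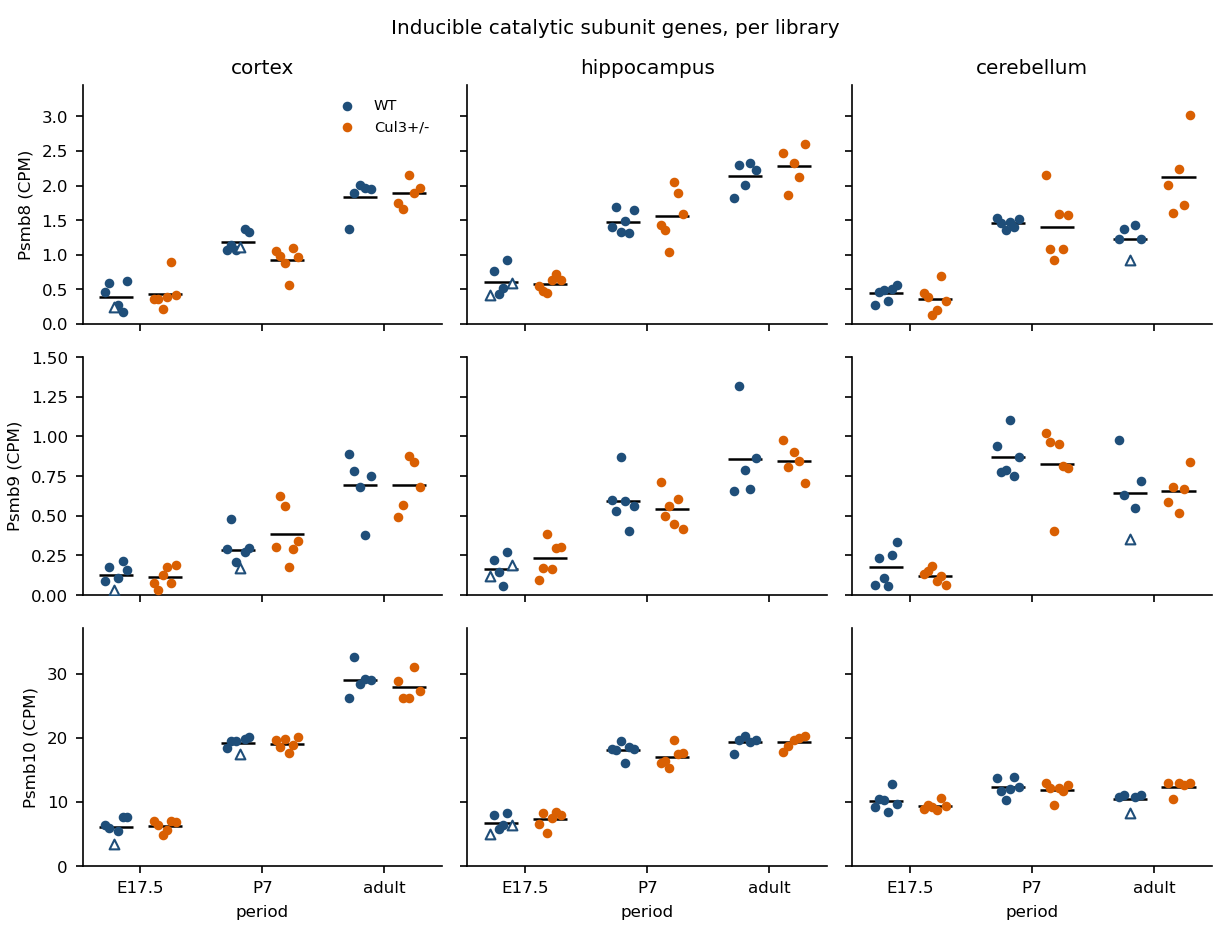
Level (y axis, CPM, linear and from 0, a scale per gene) of Psmb8, Psmb9 and Psmb10 by period (x axis) in the 3 regions, each point a library, blue for WT, orange for Cul3+/-, lines for group means and open triangles for the 5 WT libraries with Psmd11 above 60 CPM. Psmb10 climbs in the cortex from 3.41 to 7.67 CPM at E17.5 to 26.2 to 32.5 CPM in WT adults and stays between 8.32 and 13.95 CPM in the WT cerebellum.

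Psme1 and Psme2, the PA28 genes that interferon also induces, fell from P7 to adult in every region. Psme1 (chr14:55578123-55581529, plus strand), the alpha subunit of PA28, was at 35.8, 46.1 and 51.3 CPM at P7 and 18.98, 18.9, 19.3, 18.1 and 21.8 CPM in adults in the WT cortex. In the cerebellum it was at 36.9, 42.3 and 45.4 CPM at P7 and 13.2, 11.02, 12.8, 14.4 and 12.5 CPM in adults. Every adult library was below every P7 library in both, and in the hippocampus too (45.7, 50.02 and 56.0 against 24.2, 25.3, 26.7, 25.3 and 26.8 CPM). The P7 to adult log2 fold changes were -1.18 (SE 0.090, adjusted p = 2.10e-09) in the cortex, -0.96 (SE 0.061, adjusted p = 3.86e-10) in the hippocampus and -1.70 (SE 0.069, adjusted p = 6.54e-14) in the cerebellum. The step to P7 was -0.18 (SE 0.083, adjusted p = 0.0603), -0.08 (SE 0.057, adjusted p = 0.220) and -0.28 (SE 0.062, adjusted p = 6.40e-04) in the same order, and the cortex call was lost when any of 5 WT libraries was left out by itself. Psme2 (chr14:55587441-55591113, minus strand), its partner in the PA28 ring, was called lower in every step and region except the cerebellum from E17.5 to P7 (-0.11 (SE 0.075, adjusted p = 0.203)). Its P7 to adult log2 fold change was -0.43 in the cortex, -0.41 in the hippocampus and -0.82 in the cerebellum.

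Psme4 (chr11:30771726-30880361, plus strand), which encodes PA200, fell early in the forebrain and late in the cerebellum. It was at 139.5, 153 and 199 CPM at E17.5, 88.1, 97.2 and 106 at P7 and 86.7, 83.1, 71.7, 82.2 and 68.6 CPM in adults in the cortex, with no overlap between periods. In the cerebellum it was at 147, 157 and 167 CPM at E17.5, 154, 175 and 188 at P7 and 97.8, 107, 91.7, 104 and 106 in adults, where E17.5 and P7 overlapped and the adults lay below both. The step to P7 was -0.80 (SE 0.094, adjusted p = 3.46e-07) in the cortex, -0.78 (SE 0.089, adjusted p = 3.80e-07) in the hippocampus and 0.14 (SE 0.054, adjusted p = 0.0269) in the cerebellum. The step to adult was -0.28 (SE 0.098, adjusted p = 0.0188), -0.46 (SE 0.094, adjusted p = 4.45e-04) and -0.76 (SE 0.058, adjusted p = 5.87e-10) in the same order. Psme3, the nuclear activator, moved less, with log2 fold changes from -0.34 (P7 to adult, cerebellum) to 0.22 (the same step in the cortex, a rise). The inhibitor Psmf1 was called lower in 4 of the 6 steps, at most by 0.35 on the log2 scale from P7 to adult in the hippocampus, and not in the cortex from P7 to adult (-0.08) or the cerebellum before P7 (-0.06).

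**Figure D4:**
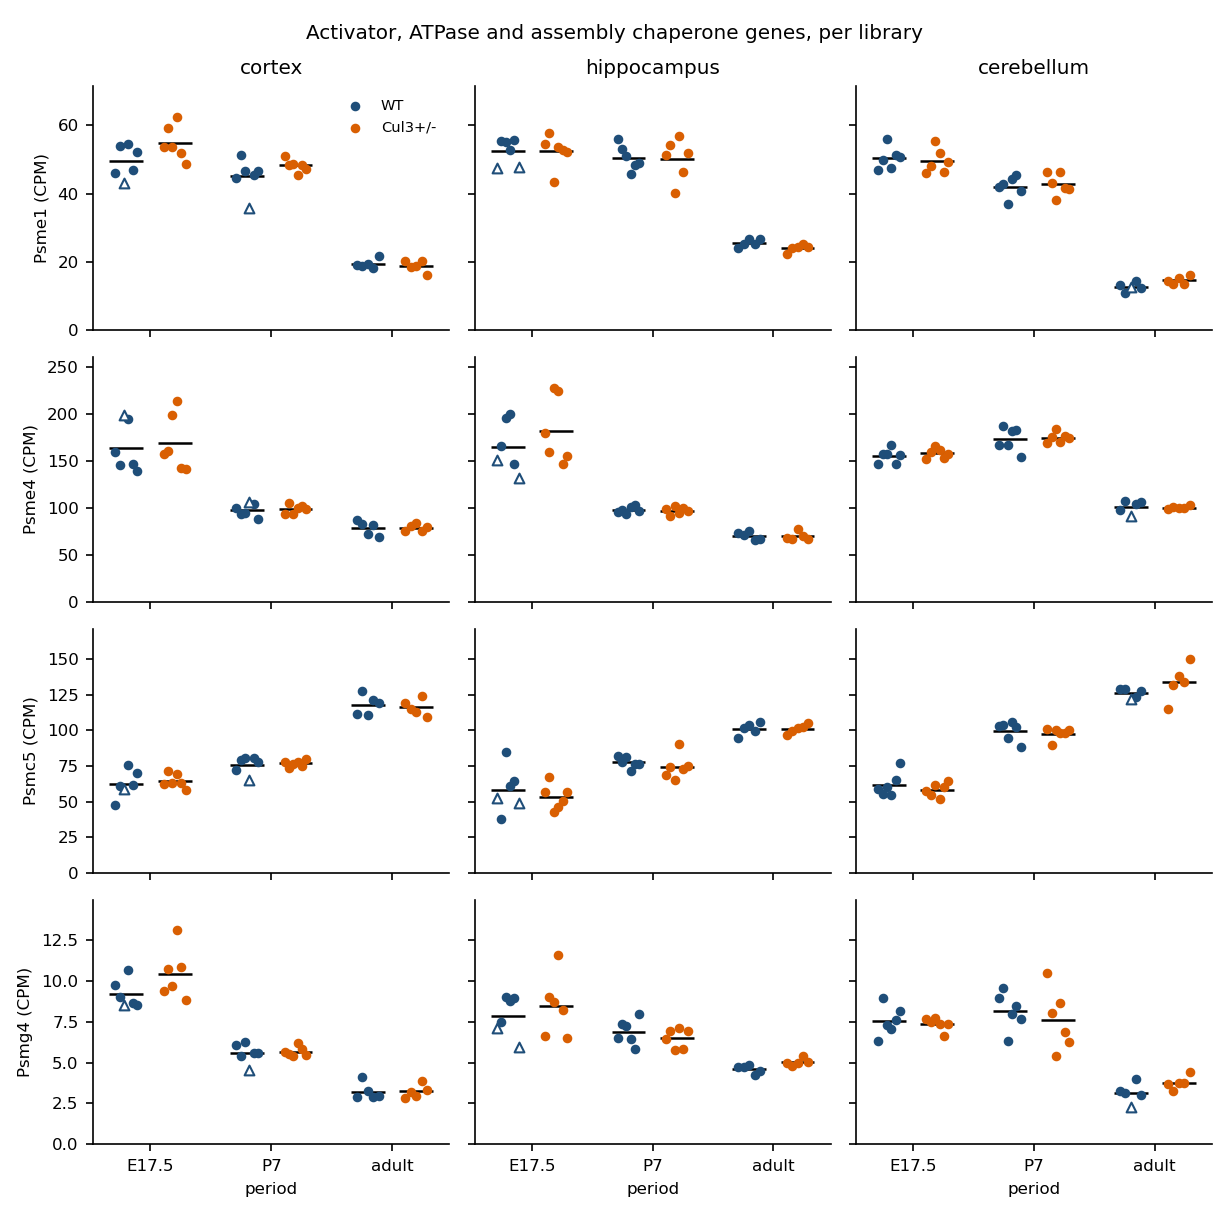
Level (y axis, CPM, linear and from 0, a scale per gene) of the activators Psme1 and Psme4, the ATPase Psmc5 and the assembly chaperone Psmg4 by period (x axis) in the 3 regions, each point a library, blue for WT, orange for Cul3+/-, lines for group means and open triangles for the 5 WT libraries with Psmd11 above 60 CPM. Psme1 stays at 35.8 CPM or more in every WT library up to P7 and at 26.8 CPM or less in every WT adult, while Psmc5 is highest in adults in each region.

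Most chaperones of 20S assembly fell at each step in the cortex and hippocampus. All 4 were called lower from E17.5 to P7 in the cortex. In the hippocampus all 4 were as well, but the calls of Psmg1 (-0.18, adjusted p = 0.0769) and Psmg4 (-0.21, adjusted p = 0.0775) were both lost without E17.5 WT 4, E17.5 WT 5 or P7 WT 4 and with a replicate block, which leaves 2 of 4. From P7 to adult 3 of 4 fell in each of these regions and 4 of 4 in the cerebellum. Psmg4 (chr13:34162964-34178173, plus strand) was at 8.52, 8.84 and 10.7 CPM at E17.5, 4.52, 5.61 and 6.25 at P7 and 2.87, 4.10, 3.25, 2.88 and 2.94 CPM in adults in the cortex, with no overlap. In the cerebellum it was at 6.30, 8.23 and 9.56 CPM at P7 and 3.25, 3.14, 2.27, 3.97 and 3.03 CPM in adults. The adult cerebellum libraries were all below the P7 ones. Its log2 fold changes were -0.76 (SE 0.10, adjusted p = 2.19e-06) and -0.77 (SE 0.11, adjusted p = 1.09e-05) in the cortex and 0.09 (SE 0.12, adjusted p = 0.487) and -1.36 (SE 0.13, adjusted p = 1.86e-08) in the cerebellum. Psmg3 showed its largest change before P7 in the cortex, -0.93 (SE 0.078, adjusted p = 4.11e-09), and Psmg1 and Psmg2 fell at that step by 0.46 and 0.51. In the cerebellum from E17.5 to P7 Psmg1 rose by 0.19 and Psmg3 fell by 0.20 on the log2 scale, calls that were lost when any of 5 libraries (Psmg1) or any of 6 (Psmg3) was left out by itself.

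Of the chaperones of the 19S base, Psmd10 rose from P7 to adult in the cortex (0.26) and hippocampus (0.34) and fell in the cerebellum (-0.22), while Psmd9 fell in all 3, most in the cerebellum (-0.75). The recombination cofactor Psmc3ip (chr11:101091823-101095436, minus strand) was at 8.86, 11.7 and 15.2 CPM at E17.5, 2.03, 3.04 and 3.81 at P7 and 1.53, 1.46, 1.05, 1.36 and 0.899 CPM in adults in the cortex, and at 8.43, 9.003 and 10.1 CPM at E17.5, 9.13, 10.1 and 13.3 at P7 and 1.91, 2.38, 1.81, 2.79 and 2.07 in adults in the cerebellum. No periods overlapped in the cortex, and in the cerebellum only the adults stood apart. Its log2 fold changes were -1.98 (SE 0.16, adjusted p = 3.24e-09) and -1.27 (SE 0.19, adjusted p = 1.12e-05) in the cortex and 0.18 (SE 0.099, adjusted p = 0.120) and -2.22 (SE 0.12, adjusted p = 2.77e-12) in the cerebellum. Psme2b (chr11:48945354-48946190, minus strand) rose to P7 by 0.98, 1.44 and 1.40 and fell to adult by 0.92, 1.18 and 1.43 on the log2 scale in cortex, hippocampus and cerebellum. Psma8 was tested in the cerebellum alone, where every WT library held between 0.0828 and 0.497 CPM and the step to P7 was 1.201 (SE 0.31, adjusted p = 0.00227). It passed the filter on low counts in no other region's step fit, so a rise to the period that lifted it over the filter had to follow. Psmb11 was at 0 CPM in 4 of 5 adult cerebellum WT libraries and at 0.0274 CPM in the other one.

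In Cul3+/- mice, other animals than those above, the same 6 steps were fitted on their own. From E17.5 to P7, 11 members were higher and 28 lower of 48 in the cortex (42.9% and 42.4% of all genes), 14 and 20 in the hippocampus (40.1% and 39.1%), and 38 and 3 of 49 in the cerebellum (37.6% and 37.4%). From P7 to adult the counts were 7 higher and 34 lower in the cortex (35.8% and 37.3%), 7 and 21 in the hippocampus (31.8% and 33.2%) and 2 and 36 in the cerebellum (39.6% and 39.7%). Of the 31 constitutive subunits, 27 rose and none fell to P7 and 25 fell and 1 rose to adult in the cerebellum, with a median of -0.37 over the core genes at the later step. Psmb10 rose by 1.57 and 0.57 in the cortex and by 1.198 to P7 in the hippocampus. Psme1 fell to adult by 1.33, 1.04 and 1.54 in cortex, hippocampus and cerebellum. Psmc5 rose in all 6 steps, by 0.22 to 0.72 on the log2 scale. Psmb8 was called higher from P7 to adult in the Cul3+/- cerebellum, 0.60 (SE 0.27, adjusted p = 0.0545). The difference between the genotypes in a step was not tested.

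Whether the steps themselves differed between regions was tested in the WT mice with the mouse as a block. From E17.5 to P7 the change in the cerebellum was above that in the cortex for 35 of 49 members and below it for 1 (34.3% and 35.3% of all genes), with a median difference of 0.45 on the log2 scale. Against the hippocampus it was above for 30 and below for 3 (34.1% and 31.8%, median 0.30). From P7 to adult the cerebellum lay below the cortex for 36 and above it for none (31.2% and 29.8%, median -0.37), and below the hippocampus for 36 and above for none (29.2% and 28.3%, median -0.40), with all 14 core genes among those below the hippocampus. Hippocampus and cortex differed for 13 members above and none below from E17.5 to P7 (20.4% and 18.3%), and for 2 above and 3 below from P7 to adult (7.34% and 10.3%). These last counts were unstable: without the libraries set apart by Psmd11 they were 4 above at the first step and 7 above at the later one. When adult WT 1, 2, 3 or 6 was left out by itself, 6 or 7 were above at the first step. These adults hold no E17.5 or P7 library and bear on the first step only through the shared fit. No E17.5 or P7 mouse was left out by itself, so how that step rests on its own mice was not tested. At the later step none was above without adult WT 3 or 6, and 1 was without WT 2 or without the mouse numbered WT 4 in the cortex.

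For single genes, Psme4 changed more in the cerebellum at the first step, 0.92 (SE 0.088, adjusted p = 4.78e-11) for cerebellum against cortex and 0.93 (SE 0.088, adjusted p = 5.42e-11) against hippocampus. Psmb10 went the other way, -1.36 (SE 0.14, adjusted p = 1.91e-10) and -1.13 (SE 0.14, adjusted p = 1.26e-08). The largest difference in the first step was that of Psmc3ip for cerebellum against cortex, 2.14 (SE 0.16, adjusted p = 2.03e-13), and that of the lid deubiquitinase Psmd14 was 0.93 (SE 0.12, adjusted p = 3.32e-08). At the later step the steps of all 3 inducible subunits were below those of the cortex in the cerebellum, Psmb9 by -1.74 (SE 0.33, adjusted p = 3.01e-05), Psmb8 by -0.90 (SE 0.24, adjusted p = 0.00213) and Psmb10 by -0.86 (SE 0.14, adjusted p = 3.51e-06). Psmb9 carries the limit of the filter given above. Psme1 fell further in the cerebellum than in the hippocampus, -0.74 (SE 0.10, adjusted p = 1.61e-07), and than in the cortex, -0.53 (SE 0.10, adjusted p = 3.99e-05).

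Between regions of the same WT mice, few members were called at E17.5, most were higher in the cerebellum at P7, and more were lower than higher in the adult cerebellum against the hippocampus. At E17.5, of 47 members tested, 2 were higher and 4 lower in the hippocampus than in the cortex (24.2% and 22.3% of all genes), 1 higher and 4 lower in the cerebellum than in the cortex (31.3% and 30.3%), and 1 higher and 4 lower in the cerebellum than in the hippocampus (25% and 24.5%). These few calls moved with single mice: the members lower in the cerebellum than in the cortex were 11 without WT 6, and without the libraries set apart by Psmd11 the lower counts were 10 against the cortex, 9 against the hippocampus and none for hippocampus against cortex. The higher count for cerebellum against cortex was 4 without WT 1 and 3 without WT 4. At P7, of 49 tested, 39 were higher and 1 lower in the cerebellum than in the cortex (44.1% and 38.8%, median 0.38 beside 0.06 over all genes), 38 and 2 in the cerebellum than in the hippocampus (42.3% and 36%, median 0.30), and 12 and 1 in the hippocampus than in the cortex (27.8% and 29.2%). Of the 31 constitutive subunits, 24 were higher in the P7 cerebellum than in the cortex and 24 than in the hippocampus, and none was lower in either. Without P7 WT 4 the lower counts were 7 in both cerebellum contrasts, with 5 constitutive subunits in each, and without P7 WT 1 the hippocampus had 7 members above the cortex.

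In adults 20 members were higher and 5 lower in the hippocampus than in the cortex (25.5% and 25.9% of all genes, median 0.13), 8 higher and 16 lower in the cerebellum than in the cortex (38.9% and 36.5%, median -0.03), and 9 higher and 28 lower in the cerebellum than in the hippocampus (38.3% and 36.8%, median -0.16). Without adult WT 3, in whose cerebellum library Psmd11 stood apart, 13 members were higher in the cerebellum than in the cortex, and 14 were with only that library left out. Of the 14 core genes, 12 were higher in the hippocampus than in the cortex and 12 lower in the cerebellum than in the hippocampus. Psmb5 was at 70.0, 82.4, 74.5, 72.0 and 82.6 CPM in the adult WT hippocampus against 55.4, 61.0, 50.6, 54.6 and 54.1 CPM in the cortex and 49.5, 55.9, 48.7, 53.6 and 53.9 CPM in the cerebellum. The hippocampus libraries lay above all others, with 0.45 (SE 0.044, adjusted p = 4.66e-06) against the cortex and -0.54 (SE 0.044, adjusted p = 2.31e-07) for cerebellum against hippocampus.

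The inducible subunit Psmb10 changed its order with age. It was higher in the cerebellum than in the cortex at E17.5, 0.77 (SE 0.14, adjusted p = 4.21e-04), and lower at P7, -0.60 (SE 0.061, adjusted p = 2.93e-07), and in adults, -1.49 (SE 0.070, adjusted p = 8.29e-10). Adult hippocampus lay between them, -0.61 (SE 0.068, adjusted p = 1.26e-05) against the cortex. Psmb9 had another order at P7, higher in the cerebellum than in the cortex, 1.65 (SE 0.23, adjusted p = 7.68e-06). It did not pass the filter on low counts in the P7 cortex genotype dataset. It so entered the P7 region fit through the other regions, and a higher level there had to follow. Psmb8 was lower in the adult cerebellum than in the adult cortex, -0.59 (SE 0.14, adjusted p = 0.00196). Psme4 was higher in the cerebellum than in the cortex at P7, 0.87 (SE 0.045, adjusted p = 8.14e-11), and in adults, 0.36 (SE 0.065, adjusted p = 3.21e-04). Psme1 was lower in the adult cerebellum than in the adult cortex, -0.62 (SE 0.069, adjusted p = 4.02e-06).

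Of 18 other genes of the pathway in the table, 8 rose and 6 fell in the WT cortex from E17.5 to P7 and 10 rose and 5 fell to adult. The counts were 10 and 3, then 9 and 4 in the hippocampus and 9 and 2, then 7 and 9 in the cerebellum. They stand beside the shares of all genes called at the same steps, given above, which were about as large upward as downward. An excess over those shares was not tested. Sem1, the small 19S lid subunit without a Psm symbol, rose to P7 (0.52) and fell to adult (-0.85) in the cerebellum. Nfe2l1, which encodes NRF1, fell and then rose there, -0.32 and 0.93, and rose at both steps in the cortex, 0.55 and 0.88. The deubiquitinase Uchl5 of the 19S particle rose in all 6 steps, by 0.37 to 0.79 in the cortex. Usp14, another one, rose at both steps in the cortex (0.81 and 0.18) and was not called in the cerebellum (0.06 and -0.04). Akirin2, which brings proteasomes into the nucleus, fell to adult in the cerebellum (-0.59), and Pomp, the maturation factor of the core, also fell there (-0.20).

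Most genes of antigen presentation and interferon response rose before P7, as the inducible subunits did. Of 10 such genes, 8 rose and 2 fell in the cortex, 8 and 1 in the hippocampus and 8 and 2 in the cerebellum. To adult 5 rose and 2 fell, 6 and 2, and 8 and 1. The shares of all genes called at the same steps are given above with the member counts, and an excess over them was not tested. B2m, the light chain of MHC class I, rose at every step, by 1.74 and 1.24 in the cortex and 0.98 and 0.28 in the cerebellum. The heavy chain H2-K1 did so too, by 1.12 and 1.36 and by 0.57 and 0.98. Tap1, the peptide transporter gene next to Psmb9, rose to P7 in all regions, 1.04, 1.08 and 0.70. It fell to adult in all, -0.33, -0.63 and -1.06 in cortex, hippocampus and cerebellum. B2m and H2-K1 so rose in the cerebellum to adult, where Psmb8 and Psmb9 were not called. Nlrc5, the transactivator of MHC class I genes, fell to P7 and rose to adult in the cerebellum, -1.13 and 1.31.

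The genotype comparison asked whether losing a copy of Cul3 changed these genes. No member was called in any of the 9 datasets by edgeR's quasi-likelihood test, where Cul3 itself was the only gene called of 16594 to 17754 tested. In cortex, hippocampus and cerebellum the gene called was 0.00603%, 0.00586% and 0.00568% of those tested at E17.5, 0.00566%, 0.00563% and 0.0057% at P7, and 0.00569%, 0.00584% and 0.00584% in adults. At an unadjusted p under 0.05 and without pairing, no member passed at E17.5, where 0.585%, 1.31% and 1.66% of all genes were higher and 1.08%, 0.979% and 1.84% lower in the same order of regions. In the E17.5 cortex the replicate numbers were taken to pair the samples, by a rule given below that was applied to these same data. With the number as a block 6 of 47 members passed at that p, all higher in Cul3+/- (6.59% of all genes higher, 7.89% lower). They were Psmb4, Psmd10, Psme1, Psmc4, Psma5 and Psme2, with log2 fold changes from 0.08 to 0.15 and adjusted p from 0.279 to 0.338. None passed in the P7 cerebellum (3.78% higher, 1.11% lower). Psmb8 was lower in the P7 cortex (1.52% higher, 1.7% lower), -0.34 (SE 0.16, adjusted p = 0.900). Psma8, which passed the filter in 2 of the 9 datasets, was higher in the P7 hippocampus (3.45% higher, 1.6% lower), 0.64 (SE 0.22, adjusted p = 0.833). In the adult cortex (2.07% higher, 1.59% lower) the chaperone Psmg2, -0.19 (SE 0.073, adjusted p = 0.997), and the inhibitor Psmf1, -0.13 (SE 0.056, adjusted p = 0.997), were lower. In the adult hippocampus (3.4% higher, 2.84% lower) the 19S lid subunit Psmd3 was higher, 0.12 (SE 0.058, adjusted p = 0.796). DESeq2 at adjusted p of 0.1 called 2 members, Psmb8 and Psmb5 in the adult cerebellum. The share of all genes that DESeq2 called there was not computed, so this count cannot be set against it. A p that misses the threshold does not show that the genotypes were alike.

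The adult cerebellum held most of the members at an unadjusted p under 0.05, 11 of 48 and all higher in Cul3+/-, where 5.71% of all genes were higher and 8.66% lower at that p. They were Psmb8, Psmb5, Psma5, Psmb2, Psmb6, Psmb1, Psmb4, Psmg1, Psmc1, Psmb10 and Psma6. All 14 core genes had a log2 fold change between 0.14 and 0.22, with a median of 0.18, and 38 of 48 members were above 0. The median over all genes was 0.0009. Members are measured in the same libraries, so such counts are not replicates of the genotype. The summed level of the 31 constitutive subunits was 2826 ± 151 (SD, n = 5) CPM in Cul3+/- and 2544 ± 203 (SD, n = 5) CPM in WT, and the ranges, 2614 to 3006 and 2195 to 2711 CPM, overlapped. Without adult WT 3 the count was 8, without WT 2 it was 18, without Cul3+/- 1, 3 or 6 it was 3 each time, and with 3 factors of unwanted variation it was 2. The shares of 5.71% and 8.66% belong to the main fit. No share of all genes was computed in these refits, so their counts cannot be set against one. The median of the members was 0.15 with and 0.09 without WT 3.

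Psmb8 had the smallest p of the members there. It was at 1.23, 1.37, 0.924, 1.42 and 1.23 CPM in the 5 WT mice and at 2.01, 1.60, 2.23, 1.72 and 3.01 CPM in the 5 Cul3+/- mice, and the genotypes did not overlap. The log2 fold change was 0.74 (SE 0.19, adjusted p = 0.293). The adjusted p was 0.0739 with DESeq2 and 0.363 without WT 3. Psmb5 was at 49.5, 55.9, 48.7, 53.6 and 53.9 CPM in WT and 63.1, 56.2, 62.9, 59.2 and 65.3 CPM in Cul3+/-, also without overlap. Its log2 fold change was 0.20 (SE 0.055, adjusted p = 0.293), and the adjusted p was 0.0935 with DESeq2. Psmb10 was at 10.8, 11.1, 8.32, 10.7 and 11.1 CPM in WT and 12.9, 10.4, 12.97, 12.7 and 12.95 CPM in Cul3+/-, where Cul3+/- 2 fell within the WT range. Microglia markers summed to 104 to 123 CPM in these WT libraries and 123 to 149 CPM in the Cul3+/- libraries, and their part in the Psmb8 values was not tested. In the other 8 datasets the median log2 fold change of the members lay between -0.05 and 0.06. In the E17.5 cortex it was 0.06, beside -0.001 over all genes, and 0.02 with 3 factors of unwanted variation. There 46 of 47 members were above 0 in the main fit, again in shared libraries.

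**Figure D5:**
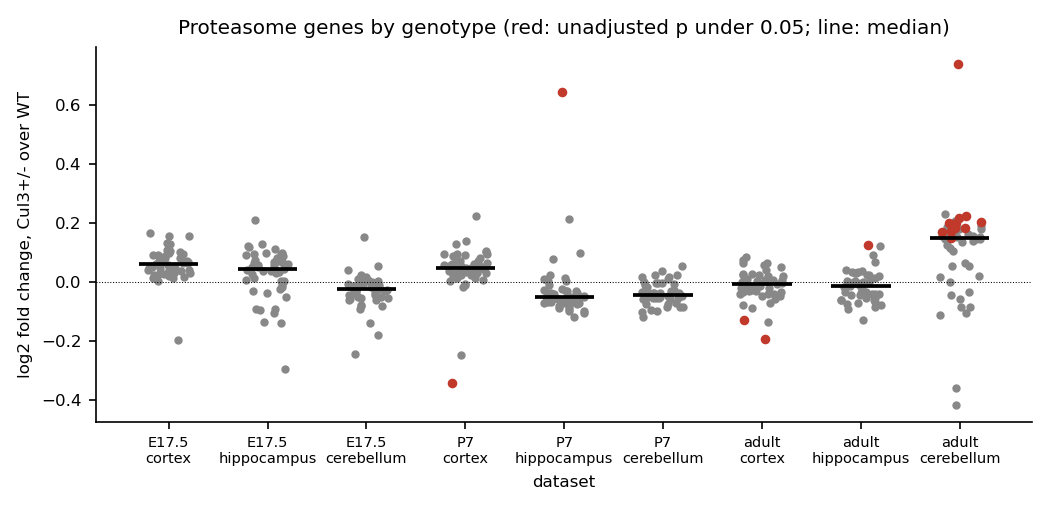
Log2 fold change of Cul3+/- over WT (y axis) for each proteasome gene tested in the 9 datasets (x axis); each point is a gene, red where the unadjusted p is under 0.05, and lines are medians. No gene passed after adjustment, 11 of the 48 points in the adult cerebellum are red and all 11 lie above 0.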

How the data were processed

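Total RNA of cortex, hippocampus and cerebellum was depleted of ribosomal RNA by the authors, made into stranded libraries and sequenced in pairs. Reads were trimmed with cutadapt 1.14 and aligned with STAR 2.5.3a to GRCm38.p5 (mm10, per the labels), and the deposited values are RSEM 1.3 expected counts per gene. Of these, 5.76% were not whole and were rounded. No column was without a sample. Symbols came from a gene name table (53274 of 53465 identifiers matched), and biotypes, lengths and coordinates from GENCODE.

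Genes passed edgeR 4.0.16 filterByExpr (minimum count 10, minimum total 15), were scaled by TMM and tested with the quasi-likelihood F test (R 4.3.3). Adjusted p-values are Benjamini-Hochberg values over all genes tested, called at 0.1, and SE is the size of the log2 fold change divided by the root of F. Genotype was fitted per period and region, development per region within a genotype, and region differences and differences of steps in WT with the mouse as a block. The fits were tested on simulated data. Alternatives were DESeq2 1.42.0, upper-quartile scaling, no filter, a threshold of 0.05, RUVs with 3 factors, a replicate block and leaving out each replicate. The libraries of 2 adult mice were left out, because the labels and a supplementary sample table give them opposite genotypes. No library pair of a group was alike within sampling noise (lowest chi-square per degree of freedom 4.71 over 270 pairs). The mice of a group are separate animals, of both sexes per the study. The labels give no sex or litter per mouse, so neither was a term in the fits.

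The members and lists were chosen with earlier results of these data known. Named were Cul3, the catalytic, inducible, tissue-restricted, activator, inhibitor and chaperone genes, the members with the largest rise and fall per comparison, those with the 2 smallest p per genotype dataset and those with the highest and lowest level per kb. Other members were named after their values were seen. Same-numbered WT and Cul3+/- libraries deviated together in all 6 pairs in the E17.5 cortex alone (correlations from 0.11 to 0.76), so the numbers were taken to pair the samples there. The rule, a correlation above 0.1 in every pair, was applied to these same data. The P7 cortex just missed it (lowest 0.09), with 5 WT libraries closest to their own number against 4 in the E17.5 cortex. E17.5 hippocampus and cerebellum, from the same mice, did not meet it either.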

Additional observations from a re-analysis of the deposited data

Results flagged for a closer look

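In each of the 18 groups of 5 or 6 libraries, 14 named genes and sums were checked. Of these 252 checks, 32 found a library farther from the others than Dixon's 95% limit allows, where chance alone gives about 1 in 20. The 32 fell on 19 libraries, and checks that share a library are not independent. Values are CPM with the range of the other libraries of the group.

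Adult cerebellum WT 3, which the Psmd11 level also set apart, was the lowest of its group for Psmb10 (8.32 against 10.7 to 11.1), Psmb6 (67.5 against 82.2 to 87.3), Psmb7 (85.7 against 108 to 117), Psmd4 (69.1 against 85.0 to 91.4) and the summed inducible subunits (9.60 against 12.7 to 13.1). P7 cortex WT 4 was the lowest for Psmb6 (77.1 against 103 to 112), Psmb7 (91.4 against 111 to 119.8) and Psmd4 (72.9 against 90.1 to 97.9) and the highest for Psmd11 (62.9 against 28.1 to 32.01). E17.5 cortex WT 3 was the highest for Psmd11 (75.3 against 35.1 to 42.8).

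P7 hippocampus WT 4, from the same mouse as P7 cortex WT 4, was the lowest for Psmb5 (63.8 against 73.5 to 76.8), Psmb7 (104 against 119.7 to 125) and the summed constitutive 26S subunits (2779.9 against 3094 to 3188). E17.5 Cul3+/- 4 was the highest for Psmb5 in the cortex (88.8 against 58.8 to 69.1) and hippocampus (95.7 against 61.4 to 72.7) and for Psmb6 in the hippocampus (148 against 101 to 117). Adult hippocampus Cul3+/- 1 was the lowest for Psmb7 (106 against 116 to 119) and for the summed 26S subunits (2616 against 2808 to 2875).

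In the P7 cerebellum, Cul3+/- 3 was the lowest for Psmb10 (9.50 against 11.7 to 12.9) and Psmb9 (0.405 against 0.801 to 1.02), Cul3+/- 2 the lowest for Psmc5 (89.9 against 97.9 to 101) and Psmd4 (90.0 against 96.8 to 101), Cul3+/- 1 the highest for Psmb5 (76.1 against 60.3 to 65.8), and WT 2 the highest for Psmc3ip (13.3 against 9.13 to 10.4). Psmb8 was highest in E17.5 cortex Cul3+/- 5 (0.891 against 0.219 to 0.415) and lowest in adult cortex WT 1 (1.38 against 1.89 to 2.01), and Psmb10 was lowest in adult cerebellum Cul3+/- 2 (10.4 against 12.7 to 12.97). Psmd11 was highest in E17.5 cerebellum WT 4 (39.5 against 32.1 to 34.6) and P7 hippocampus Cul3+/- 3 (45.3 against 28.4 to 32.3). Psmd4 was highest in E17.5 cerebellum Cul3+/- 3 (101 against 85.5 to 90.9) and E17.5 cortex WT 4 (117 against 92.8 to 99.5) and lowest in adult cortex Cul3+/- 6 (77.7 against 86.2 to 89.0).

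Steps of named genes that differed between regions by the test of the difference (adjusted p under 0.1, log2 scale) were also noted. From E17.5 to P7, cerebellum against cortex differed by 1.25 for Psmb9, 0.92 for Psme4, 0.48 for Psmb6, 0.43 for Psmc5, 0.40 for Psmb7 and -1.36 for Psmb10. Psmb9, low at E17.5 and in the P7 cortex, carries the limit of the filter given above, here and at the later step. Cerebellum against hippocampus differed by 0.93 for Psme4, 0.34 for Psmb6, 0.29 for Psmc5 and -1.13 for Psmb10, and hippocampus against cortex by 0.27 for Psmb7. That last call was lost without any of 4 adult WT mice, with upper-quartile scaling and without the 5 libraries set apart (0.16, adjusted p = 0.257). The adult mice hold no data of that step and bear on it only through the shared fit. From P7 to adult, cerebellum against cortex differed by -1.74 for Psmb9, -0.90 for Psmb8, -0.86 for Psmb10, -0.53 for Psme1, -0.48 for Psme4, -0.34 for Psmb7, -0.32 for Psmc5 and -0.29 for Psmb6. Cerebellum against hippocampus differed at that step by -0.98 for Psmb9, -0.77 for Psmb8, -0.74 for Psme1, -0.49 for Psmb5, -0.44 for Psmb6, -0.33 for Psmb10, -0.32 for Psmb7 and -0.30 for Psme4, and hippocampus against cortex by 0.30 for Psmb5, a call lost without any of 3 adult WT mice, and -0.53 for Psmb10.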

How the results depend on the processing

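Of the counts of members called, 298 recomputed under another tool, scaling, filter, threshold or set of libraries were within 1.5 times of the reported count and 28 were not. With 1 replicate left out, 536 were and 34 were not. A count of 0 that stayed at 0 was taken as within, which holds for nearly all genotype counts. These totals so overstate how steady the other counts were. Among calls of single named genes no direction reversed. Balances over members did: without the libraries set apart, 9 constitutive subunits were higher and 12 lower in the hippocampus from E17.5 to P7, against 15 and 2 in the main fit. The genotype median of the members in the E17.5 hippocampus moved from 0.04 to -0.06 without them. With DESeq2 the members called higher were 5 for cerebellum against cortex at E17.5 and 1 for hippocampus against cortex at E17.5, 2 were called by genotype in the adult cerebellum, and those lower in the P7 cerebellum were 3 against cortex and 4 against hippocampus. Without a low-count filter, 2 were higher for cerebellum against cortex and 1 for hippocampus against cortex at E17.5, 2 were lower for cerebellum against hippocampus at E17.5 and 1 fell from E17.5 to P7 in the cerebellum, and the median of all genes for that step in the cortex moved by 0.15. With upper-quartile scaling, 3 were higher for cerebellum against cortex at E17.5 and 19 for hippocampus against cortex at P7. Under it the steps differed upward for 5 members (hippocampus against cortex, E17.5 to P7) and 1 (cerebellum against hippocampus, P7 to adult) and downward for 3 (cerebellum against cortex) and 1 (hippocampus against cortex) from E17.5 to P7. At an adjusted p of 0.05, 1 was higher for hippocampus against cortex at E17.5 and 1 fell from E17.5 to P7 in the cerebellum. The next alternative was added after seeing the data. Without the 5 libraries set apart by Psmd11, the higher counts were 2 and 1 (cerebellum and hippocampus against cortex, E17.5), 14 (cerebellum against cortex, adult), 7 and 4 (steps, hippocampus against cortex, to adult and to P7), and the lower counts were 10, 9 and 0 at E17.5 (cerebellum against cortex and against hippocampus, hippocampus against cortex), 2 (cerebellum against cortex, P7), 1 (steps to P7, cerebellum against hippocampus) and 24 (E17.5 to P7, hippocampus). The cause of these moves was not tested. Shares of all genes called were not computed under these alternatives, so the counts stand without them.

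When replicates were dropped singly, the higher counts ran from 1 to 4 (cerebellum against cortex, E17.5), 6 to 13 (the same, adult), 1 to 2 and 7 to 14 (hippocampus against cortex, E17.5 and P7), and for steps from 0 to 1 (cerebellum against hippocampus, to adult), 0 to 2 and 6 to 12 (hippocampus against cortex, to adult and to P7). The lower counts ran from 3 to 11 and 1 to 7 (cerebellum against cortex, E17.5 and P7), 2 to 7 at both ages (cerebellum against hippocampus), 2 to 5 and 3 to 6 (hippocampus against cortex, E17.5 and adult), 1 to 2 (E17.5 to P7, cerebellum), 1 to 3 (steps to P7, cerebellum against hippocampus) and 8 to 18 (E17.5 to P7, hippocampus). For the differences of steps only adult mice were left out, a choice also made after seeing the data. Their ranges for the step to P7 so do not show how it rests on its own mice. Calls of single named genes were lost in 97 such cases and kept in 1927, and were lost in 69 cases under the other alternatives and kept in 1094. Members with unadjusted p under 0.05 by genotype in the adult cerebellum ran from 3 to 18, and were 12 with DESeq2 and 13 with the disputed mice put back. No share of all genes at that p was computed in these refits. With the replicate number as a block, 0 members were called by genotype in every dataset, 6 passed unadjusted in the E17.5 cortex, where the numbers were taken to pair the samples, against 0 without it, and 6 in the adult cerebellum. Elsewhere the lowest correlation of a pair ran from -0.66 to 0.09. Without the mouse as a block in the region fits, 6 calls of named genes were lost. The median coefficient of variation between mice of a group was largest for Psmb11, Psmb9 and Psma8, which had few counts.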
